A study of Mus musculus with 30 samples.

Results

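Microglia at rest carry a set of surface and secreted proteins by which they are told apart from other brain macrophages, and 9 genes of this set were named: P2ry12, Tmem119, Cx3cr1, Fcrls, Siglech, Gpr34, Olfml3, P2ry13 and Slc2a5. Every row of the deposited expression table whose gene symbol was one of these names was taken, which gave 8 of the 9 genes, 1 transcript each, of 14225 transcripts in all. Siglech was not analysed here. Rows were matched by gene symbol.

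RNA was measured in CD11b bead-isolated cells of the whole brain of C57BL/6J mice, in 30 libraries, 3 for each of 10 groups. The offspring came from dams given saline (Saline) or the double-stranded RNA mimic poly(I:C), a model of maternal immune activation (MIA), and were taken at E17, P7, P20 and P60. At P60 each arm was divided into mice on control chow (CTRL) and mice whose microglia had been depleted after weaning with the CSF1R inhibitor PLX5622 and had then been left to repopulate the brain (MG-REP). At E17 the brains of 1 litter made up a library, at P7 3 pooled brains, and at P20 and P60 a single brain. All mice were of this 1 strain, and every group was exposed before birth to one of the 2 injections of the dam. Whether the brains of a group came from different litters at P7, P20 and P60 is not given in the sources used here. The beads take every CD11b cell, so that other myeloid cells are not removed.

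These genes mark a microglial state that the brain itself maintains. Yolk sac progenitors enter the embryonic brain, divide, and acquire the adult set of receptors over the first postnatal weeks, a step for which TGF-β signalling and the transcription factor Sall1 are needed. Injury, inflammation and loss of contact with the brain lower the same genes, and microglia that refill an emptied brain have to acquire them again.

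The members fall into 4 kinds by role. P2ry12 and P2ry13 are receptors for ADP, which draw microglial processes to damaged cells, and Gpr34 is a related receptor for lysophosphatidylserine. Cx3cr1 is the receptor for the neuronal chemokine fractalkine, and Fcrls is a membrane protein related to Fc receptors. Slc2a5 is the fructose transporter GLUT5, Tmem119 is a membrane protein of uncertain function, and Olfml3 is a secreted olfactomedin-like glycoprotein.

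P2ry12 (NM_027571, chr3:59216271-59262985, GRCm38.p6, minus strand) and P2ry13 (chr3:59207892-59210882, minus strand) lie 5388 bases apart, both inside the gene Med12l, which is read from the other strand. Fcrls (chr3:87250736-87263765) and Olfml3 (chr3:103735394-103738001) are on the same chromosome, Gpr34 is on X inside Cask, and Tmem119, Cx3cr1 and Slc2a5 are on chromosomes 5, 9 and 4. The libraries did not keep the strand, so reads of P2ry12 or P2ry13 and of Med12l could not be told apart by strand; Med12l had group means of 9.86 to 31.98 TPM, against 375 TPM and more for P2ry13. Upstream sequence (RefSeq, GRCm38.p6) was held for 6 of the 8 genes. The 150 bases before the start given by RefSeq's promoter entry are shown for P2ry12 and P2ry13, the neighbouring pair, and for Fcrls, the gene with a different course through development, whose entry starts inside the span given above for the gene. They are written 5′ to 3′ on the gene's strand, with AGGAAG, the core letters of an ETS factor site, in capitals on either strand (CTTCCT where it lies on the other strand).
P2ry12, chr3:59262986-59263135: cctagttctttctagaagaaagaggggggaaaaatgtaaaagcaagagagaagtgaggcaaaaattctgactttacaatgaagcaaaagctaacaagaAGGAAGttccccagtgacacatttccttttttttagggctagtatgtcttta
P2ry13, chr3:59210883-59211032: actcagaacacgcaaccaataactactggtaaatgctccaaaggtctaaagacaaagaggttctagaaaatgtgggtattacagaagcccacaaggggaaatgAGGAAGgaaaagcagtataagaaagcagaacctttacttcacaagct
Fcrls, chr3:87263525-87263674: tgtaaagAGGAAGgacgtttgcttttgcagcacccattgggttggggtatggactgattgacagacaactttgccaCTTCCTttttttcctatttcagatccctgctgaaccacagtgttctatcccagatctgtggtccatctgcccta
The letters AGGAAG, or CTTCCT for the other strand, were found in the 250 bases before the start of 4 of the 6 genes. They occurred 4 times before Fcrls and 1 time each before P2ry12, P2ry13 and Olfml3, and were not in these windows of Cx3cr1 and Slc2a5. Of 32851 promoter entries for all genes, 29.5% held them, so a match is a description of the sequence only.

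Levels are given as TPM, by definition each transcript's share of the library corrected for its length. How these TPM were computed is not given in the sources used here, so orders between genes are those of the deposited values only. Replicates of a group correlated with r from 0.956 to 0.993 (smallest and largest pair), no 2 libraries were copies of each other, and 9 general microglial marker genes, none of them at 0 in any library, summed to between 21884 and 59291 TPM. RNA of other cells was present in uneven amounts. Choroid plexus genes summed to 411 to 12362 TPM, endothelial genes to 376 to 4855 TPM, and oligodendrocyte lineage genes to 90.02 to 484 TPM at E17 and P7 and to 335 to 5089.7 TPM at P20 and P60. The neuron list summed to 1515 TPM in E17 MIA library 1 and to 87.5 to 529 TPM in the other 29 libraries, the astrocyte list to 1470.1 TPM in P7 MIA library 3 and 2916 TPM in MIA + CTRL library 1, and the monocyte and neutrophil list to 5578 TPM in Saline + MG-REP library 2 against 94.4 and 382 TPM in the other libraries of that group. In P7 Saline library 1 all 8 members were below their group mean, by a median of 0.61 on the log2 scale. By the sex-linked genes, all 6 P20 and all 6 MG-REP libraries were female (Xist from 159 to 193 TPM), whereas in each CTRL group library 1 was female and libraries 2 and 3 were male. The libraries of E17 and P7 held both Xist and Y-linked RNA, except P7 MIA library 2 (Xist 222 TPM, Ddx3y 0.0 TPM). The sex make-up therefore also overlapped with age.

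The 8 genes differed widely in deposited TPM, and their order by TPM changed with age. At E17 Fcrls led in Saline offspring with 4431 ± 489.6 TPM (SD, n = 3), followed by Cx3cr1 with 2385 ± 371 TPM, while Tmem119 and P2ry13 stood at 486 ± 100.03 and 478 ± 84.3 TPM. In Saline + CTRL at P60 Cx3cr1 (4093 ± 796 TPM) and P2ry12 (3974 ± 671 TPM) led, and Tmem119 had 2993 ± 573 TPM, near Fcrls with 3119.8 ± 384 TPM. Slc2a5 was the lowest of the 8 in all 10 groups, with means from 85.0 to 412 TPM. Together the 8 genes made up 0.737% to 1.32% of the table's TPM in the libraries of E17 and P7, 1.46% to 2.43% in those of P20, CTRL and MIA + MG-REP, and 0.853% to 0.885% in those of Saline + MG-REP.

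**Figure D1:**
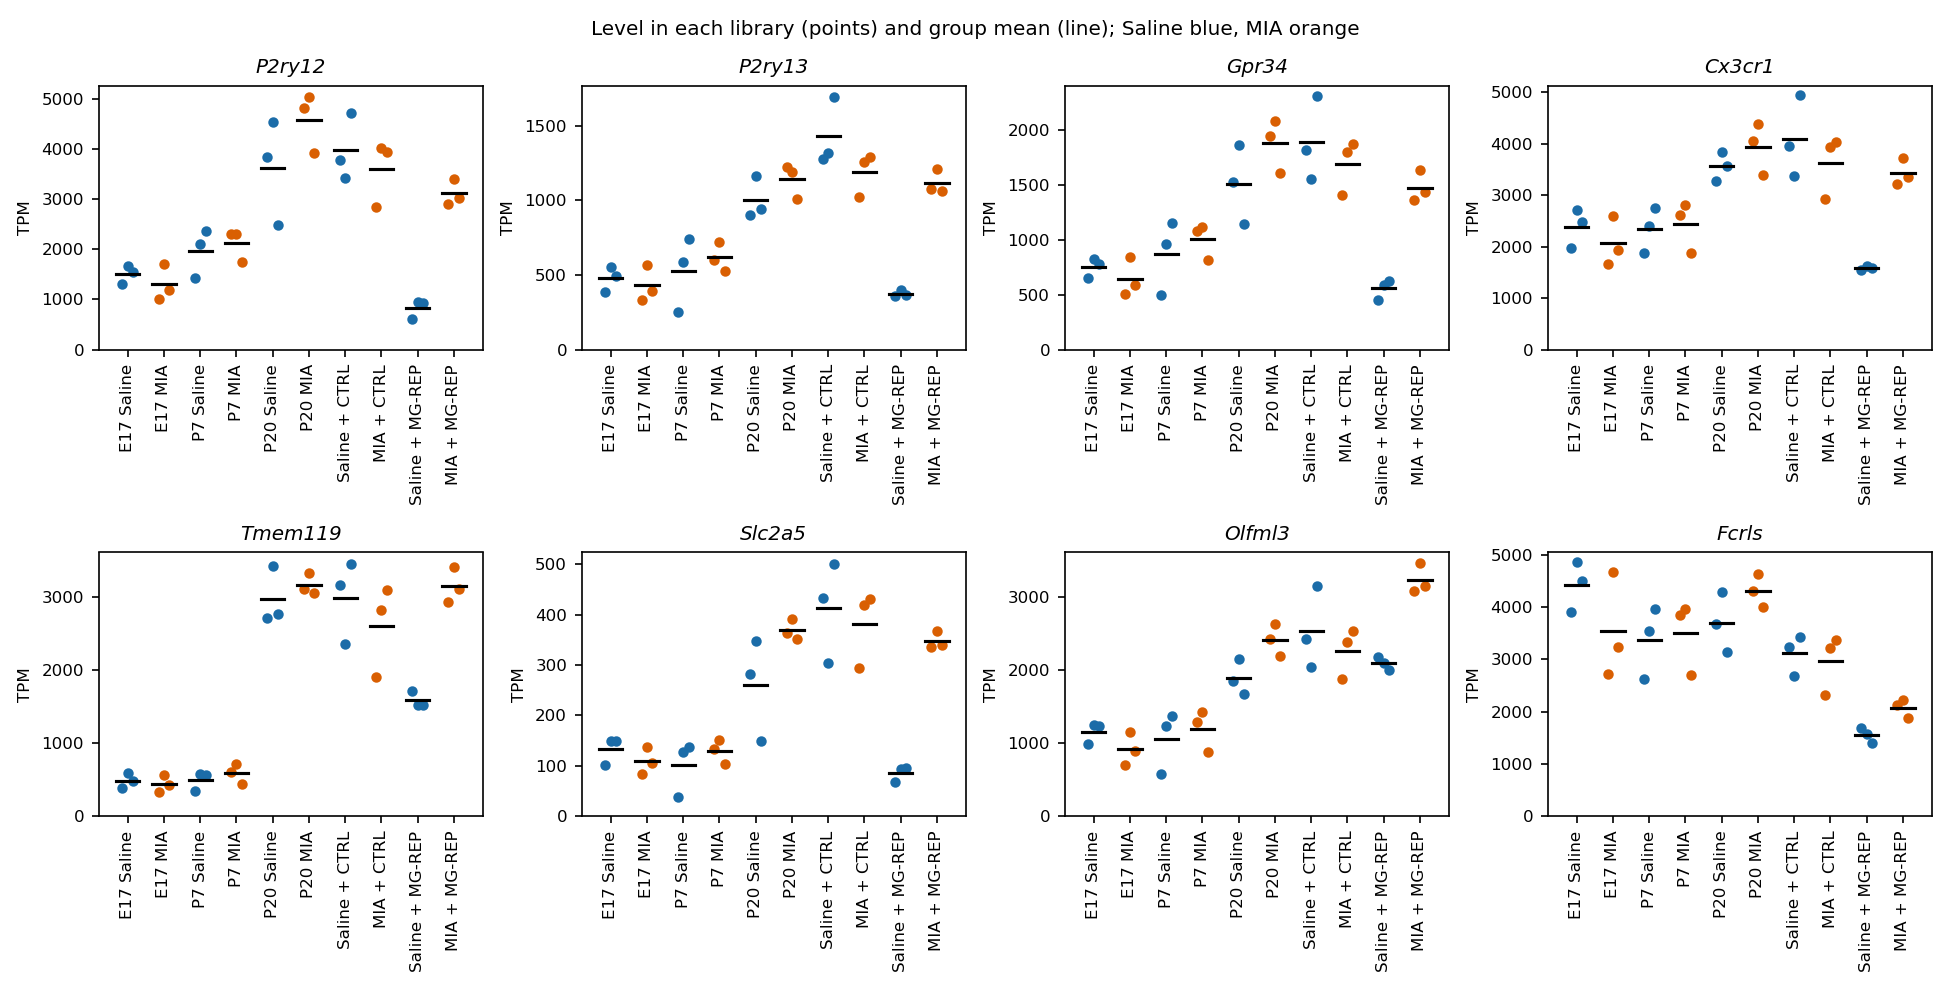
TPM (vertical axis, from 0) of the 8 genes in each of the 30 libraries, by group (horizontal axis; the last 4 groups are at P60); points are libraries, lines are group means of 3. Every panel but that of Fcrls steps up between P7 and P20 in both arms, and every panel but that of Olfml3 drops in Saline + MG-REP. Fcrls has its highest Saline mean, 4431 TPM, at E17, and its P20 libraries lie above its P7 libraries in MIA offspring only.

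The order of the 10 groups by mean TPM had few clear steps in any of the 8 genes. Neighbouring groups in that order whose libraries did not overlap were MIA + MG-REP above P7 MIA and E17 MIA above Saline + MG-REP for P2ry12 and Cx3cr1, MIA + MG-REP above P7 MIA for Gpr34, P20 Saline above P7 MIA for Olfml3 and P2ry13, P20 Saline above E17 Saline for Slc2a5, and MIA + CTRL above Saline + MG-REP above P7 MIA for Tmem119. For Fcrls they were MIA + CTRL above MIA + MG-REP above Saline + MG-REP, the bottom of its order. All other neighbouring groups overlapped.

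The first question was how the set is acquired with age. Changes were tested with limma on log2(TPM + 1) in 1 fit of all 10 groups, and a gene was called at a Benjamini-Hochberg adjusted p under 0.05 over all 14225 transcripts. From E17 to P7 none of the 8 genes was called in Saline offspring, where 3.09% of all transcripts were called higher and 1.23% lower, and their median change was -0.01 log2. None was called in MIA offspring either (1.59% of all transcripts higher and 0.801% lower), where 3 members, P2ry12, P2ry13 and Gpr34, had unadjusted p-values under 0.05 and the median was 0.41. Without E17 MIA library 2 the rise of P2ry12 was called (0.94 log2, adjusted p = 0.0350). From P7 to P20, 7 of the 8 rose in Saline offspring, against 16.1% of all transcripts called higher, and the same 7 rose in MIA offspring, against 13.1%. The median change of the 8 was 0.89 log2 in Saline and 0.97 log2 in MIA offspring, beside -0.02 and -0.09 over all transcripts. From P20 to P60 on control chow none was called in either arm (1.02% higher and 2.49% lower of all transcripts in Saline, 1.03% and 1.57% in MIA offspring).

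Tmem119 had the largest of these rises. Its libraries had 386, 586 and 487 TPM at E17 and 341, 583 and 558 TPM at P7 in Saline offspring, and then 2714, 3434 and 2774 TPM at P20. The P20 libraries lay far above every E17 and P7 library of either arm. The rise from P7 to P20 was 2.62 log2 (SE 0.22, adjusted p = 3.68e-09) in Saline and 2.46 log2 (SE 0.22, adjusted p = 1.09e-08) in MIA offspring, and from P20 to P60 the change was -0.00 and -0.31 log2 (adjusted p = 0.999 and 0.510). Selplg, which encodes the P-selectin ligand PSGL-1 and is the nearest gene with a row on that side of Tmem119, 18139 bases away, followed the most similar course: over the 10 group means its Pearson r with Tmem119 was 0.997, the highest among 9175 transcripts with at least 10 TPM in a group.

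Slc2a5 rose by 1.47 log2 (SE 0.34, adjusted p = 0.00176) between P7 and P20 in Saline and by 1.53 (SE 0.34, adjusted p = 0.00116) in MIA offspring, from 38.5, 127 and 137 TPM to 282, 347 and 149.99 TPM in the Saline libraries. The lowest P20 library was only just above the highest P7 library. Its level in Saline + CTRL, 434, 303 and 500.4 TPM, overlapped with P20, and that step was 0.72 log2 (adjusted p = 0.294).

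The purinergic receptors rose by less. P2ry12 had 1434, 2099 and 2358 TPM at P7 in Saline offspring and 3841, 4538 and 2477 TPM at P20, and in MIA offspring 2299, 2303 and 1743 TPM became 4803, 5028 and 3908 TPM. The groups did not overlap, although P20 Saline library 3 was barely above P7 Saline library 3. The changes were 0.87 log2 (SE 0.24, adjusted p = 0.00580) and 1.12 log2 (SE 0.24, adjusted p = 6.48e-04). P2ry13 rose by 1.06 log2 in Saline and 0.89 in MIA offspring (adjusted p = 0.00229 and 0.00824), and Gpr34 by 0.85 and 0.91 log2 (adjusted p = 0.00922 and 0.00563), although its Saline libraries at P7 and P20 overlapped. Olfml3 rose by 0.92 and 1.04 log2 (adjusted p = 0.00465 and 0.00168), and Cx3cr1 by 0.62 and 0.71 log2 (adjusted p = 0.0128 and 0.00486).

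General microglial genes moved in the same direction at this step. Of 5 such genes, among them the complement genes C1qa, C1qb and C1qc and the receptor Csf1r, 2 rose in Saline and all 5 in MIA offspring. Of the 8 oligodendrocyte lineage genes with a row 5 rose in each arm, and of the 8 border macrophage genes 5 fell in each arm. Of all 14225 transcripts, 5151 in Saline and 5063 in MIA offspring were called at this step, 2289 and 1858 of them higher. With each library centred on the 5 general microglial genes, only Tmem119, Slc2a5, P2ry13 and Olfml3 were still called in Saline, and only Tmem119 and Slc2a5 were called higher in MIA offspring. Fcrls was then called lower in MIA offspring (-0.42 log2, adjusted p = 0.0100). In bulk samples fewer microglia and less RNA of a gene per cell cannot be told apart. Without P7 Saline library 1, P2ry12, Olfml3, Gpr34 and Cx3cr1 lost their call in Saline offspring (0.66, 0.54, 0.49 and 0.47 log2, adjusted p = 0.0533, 0.0594, 0.110 and 0.0912), and the rises of Slc2a5 and P2ry13 were 0.89 and 0.60 log2, still called (adjusted p = 0.0202 and 0.0240). Without P20 Saline library 2, Gpr34 and Cx3cr1 lost it too (adjusted p = 0.0601 and 0.0514). Gpr34 also lost its call in a fit of only the groups compared (adjusted p = 0.0661). Cx3cr1 also lost its call under median-ratio scaling and on leaving out 5 libraries that stood apart (adjusted p = 0.0586 and 0.0622).

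From E17 to P60 Fcrls went against the others. Its libraries had 3906, 4875 and 4513 TPM at E17 in Saline offspring, 2626, 3549 and 3971 TPM at P7, 3682, 4287 and 3136 TPM at P20, and 3247, 2688 and 3424 TPM in Saline + CTRL. All 3 adult libraries were below all 3 at E17. In MIA offspring Fcrls went from 3847, 3964 and 2708 TPM at P7 to 4319, 4630 and 3996 TPM at P20. These groups did not overlap, and the rise of 0.32 log2 did not pass the limma test (adjusted p = 0.221). From E17 to P60 it fell by 0.51 log2 (SE 0.20, adjusted p = 0.0371) in Saline offspring, a call that was lost on leaving out E17 Saline library 2 or 3 (adjusted p = 0.123 and 0.0855) or Saline + CTRL library 1 or 2 (adjusted p = 0.0578 and 0.146) and under median-ratio scaling (adjusted p = 0.163), and the change in MIA offspring was -0.24 log2 (adjusted p = 0.335). Under quantile normalization and with each library centred on the 5 microglial genes, Fcrls was also called lower in MIA offspring (-0.50 and -0.97 log2, adjusted p = 0.0104 and 1.46e-06). In MIA offspring the 3 CTRL libraries of Fcrls were below the 3 at P20, a change of -0.56 log2 that did not pass the test (adjusted p = 0.135). The other 7 genes rose over this span in both arms, of which Cx3cr1 lost its call with the centring on microglial genes (0.25 log2 in Saline and 0.09 in MIA offspring, adjusted p = 0.0655 and 0.485). In Saline offspring 7 were called higher, against 22.1% of all transcripts, and 1 lower, against 25.4%; in MIA offspring 7 were called higher, against 19.3%, and none lower, against 28.8%. Ccl9 (r = 0.967), a chemokine, and Mpi (r = 0.958), an enzyme of mannose metabolism, had the group means most like those of Fcrls.

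**Figure D2:**
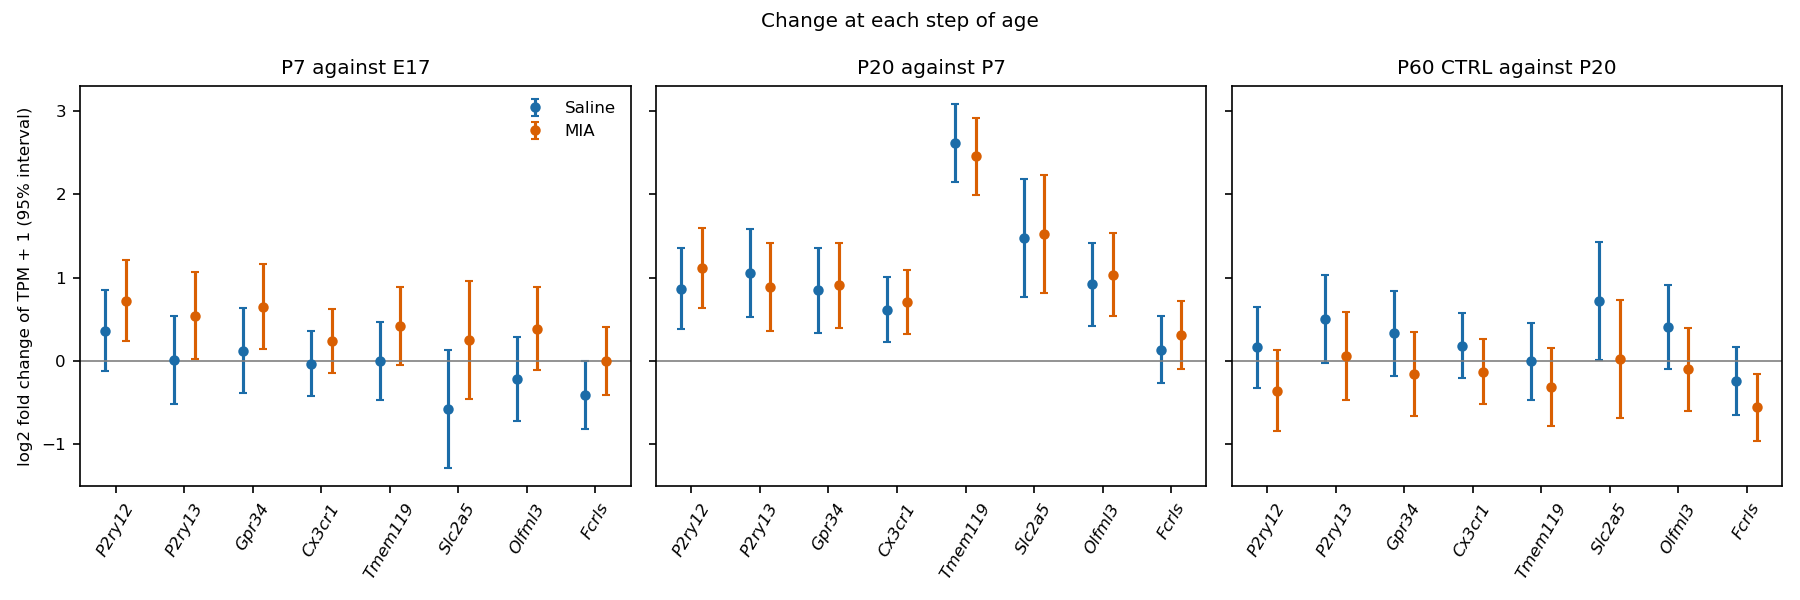
Log2 fold change of TPM + 1 (vertical axis) of each gene (horizontal axis) at 3 steps of age, with 95% intervals from limma, Saline in blue and MIA in orange. The middle panel, P20 against P7, holds the rises, with Tmem119 at 2.62 and 2.46; the interval of Fcrls spans 0 there.

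Other genes of the homeostatic state, a list of 50 of which 42 had a row (45 transcripts), moved at the same step. In Saline offspring 29 of the 45 transcripts rose and 1 fell from P7 to P20, with a median change of 0.70 log2, and from E17 to P60 31 rose and none fell. The 3 largest rises over the whole span were those of Upk1b (5.68 log2, from 1.20 to 113 TPM), Selplg (3.33 log2, from 304 to 3069 TPM) and Cst3, which encodes the protease inhibitor cystatin C (2.70 log2, from 7988 to 52275 TPM), with adjusted p-values of 1.79e-10, 5.50e-10 and 1.56e-08. The 13 cycling genes of the list, such as Mki67, went the other way at this step. All 13 fell from P7 to P20 in both arms, where 5151 and 5063 of 14225 transcripts were called in either direction. Their summed level was 1136 to 1347 TPM in the E17 and P7 libraries and 21.7 to 51.7 TPM in those of P20 and CTRL.

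The next question was whether maternal immune activation moved these genes. At E17, P7, P20 and in adults on control chow, MIA offspring did not differ from Saline offspring in any of the 8 genes by limma at these sample numbers, and at each of the 4 ages 0% of all transcripts were called; unadjusted p-values under 0.05 numbered 585, 335, 457 and 256 transcripts, and 0 of the 8 members each time. The direction of the members' median was -0.24 log2 at E17, 0.25 at P7, 0.28 at P20 and -0.15 in CTRL. The intervals leave room for sizeable changes: for P2ry12 the 95% interval of the difference was -0.71 to 0.26 log2 at E17 and -0.63 to 0.34 in CTRL, and for Tmem119 it was -0.67 to 0.25 in CTRL. For Slc2a5 at P20 it was wider, -0.12 to 1.30. At P20 Slc2a5 and Olfml3 were higher in every MIA library than in every Saline library (0.59 and 0.36 log2), without a call. The other members overlapped between the arms at that age. At E17 the lowest library for all 8 members was MIA library 1, which also had the highest neuron sum; the part of those cells in the values was not tested.

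The last question concerned repopulation, and here the 2 arms parted. In Saline offspring 7 of the 8 genes were lower in MG-REP than in CTRL, against 14.9% of all transcripts called lower, with a median of -1.56 log2 for the 8 and -0.14 for all transcripts. In MIA offspring none of the 8 was called in the main fit (0.387% of all transcripts higher and 0.169% lower), with a median of -0.10 log2. The difference of the 2 changes was called for 6 of the 8, P2ry12, Slc2a5, P2ry13, Gpr34, Cx3cr1 and Tmem119, against 4.42% of all transcripts called in that direction. The call of Tmem119 was lost under median-ratio scaling (1.13 log2, adjusted p = 0.0931), and Fcrls gained one under quantile normalization (0.69 log2, adjusted p = 0.0490).

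In deposited TPM P2ry12 fell to a level below that of E17. It had 3779.7, 3422 and 4721 TPM in Saline + CTRL and 609, 949.8 and 926 TPM in Saline + MG-REP, and 2847, 4017 and 3933 TPM in MIA + CTRL beside 2903, 3404 and 3019 TPM in MIA + MG-REP. The 3 Saline + MG-REP libraries lay below all 27 others, E17 included, and the 2 groups of MIA offspring overlapped. The change was -2.28 log2 (SE 0.24, adjusted p = 7.22e-08) in Saline and -0.20 log2 (SE 0.24, adjusted p = 0.978) in MIA offspring. The group mean in Saline + MG-REP was 20.8% of that in Saline + CTRL.

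Slc2a5 fell to 20.6% of its Saline + CTRL mean, with 67.1, 92.6 and 95.2 TPM (-2.25 log2, SE 0.34, adjusted p = 2.00e-05). P2ry13 fell to 26.2% with 357, 403 and 365 TPM (-1.92 log2, SE 0.25, adjusted p = 3.04e-06), Gpr34 to 29.4% with 454, 589 and 627 TPM (-1.76 log2, SE 0.25, adjusted p = 6.86e-06), and Cx3cr1 to 38.5% with 1539, 1614 and 1580.4 TPM (-1.36 log2, SE 0.19, adjusted p = 5.86e-06). None of these libraries overlapped with Saline + CTRL. In MIA + MG-REP the same 4 genes stood at 91.1%, 93.7%, 87.3% and 94.7% of MIA + CTRL.

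Tmem119 and Fcrls fell by less. Tmem119 had 1719.5, 1520.3 and 1522 TPM in Saline + MG-REP and 3166, 2354 and 3459 TPM in Saline + CTRL (-0.90 log2, SE 0.22, adjusted p = 0.00397), a call that missed the threshold under median-ratio scaling (-0.76 log2, adjusted p = 0.0578) and with Xist as a covariate (-0.76 log2, adjusted p = 0.0579). Fcrls had 1685, 1572 and 1395 TPM (-1.005 log2, SE 0.20, adjusted p = 4.07e-04). It was also the lowest member relative to control chow in MIA + MG-REP, with 2124, 2227 and 1869.8 TPM against 2311, 3223 and 3375 TPM in MIA + CTRL, groups that did not overlap (-0.50 log2, 95% interval -0.91 to -0.10, adjusted p = 0.565). Fcrls was called lower in this comparison with each library centred on the 5 microglial genes (-0.72 log2, adjusted p = 0.00547). It was also called lower on leaving out 5 libraries that stood apart (-0.67 log2, adjusted p = 0.0466).

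Olfml3 did not pass the test. Its 2175, 2086 and 2001 TPM in Saline + MG-REP overlapped with 2424, 2033 and 3140.0 TPM in Saline + CTRL (-0.26 log2, 95% interval -0.76 to 0.24, adjusted p = 0.490). In MIA + MG-REP it had 3068, 3457 and 3148 TPM, above the 1875, 2384 and 2526 TPM of MIA + CTRL in all 3 libraries (0.52 log2, 95% interval 0.02 to 1.02, adjusted p = 0.766). In both arms Olfml3 thus kept the highest share of its control level of the 8 genes, 82.4% and 143%.

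**Figure D3:**
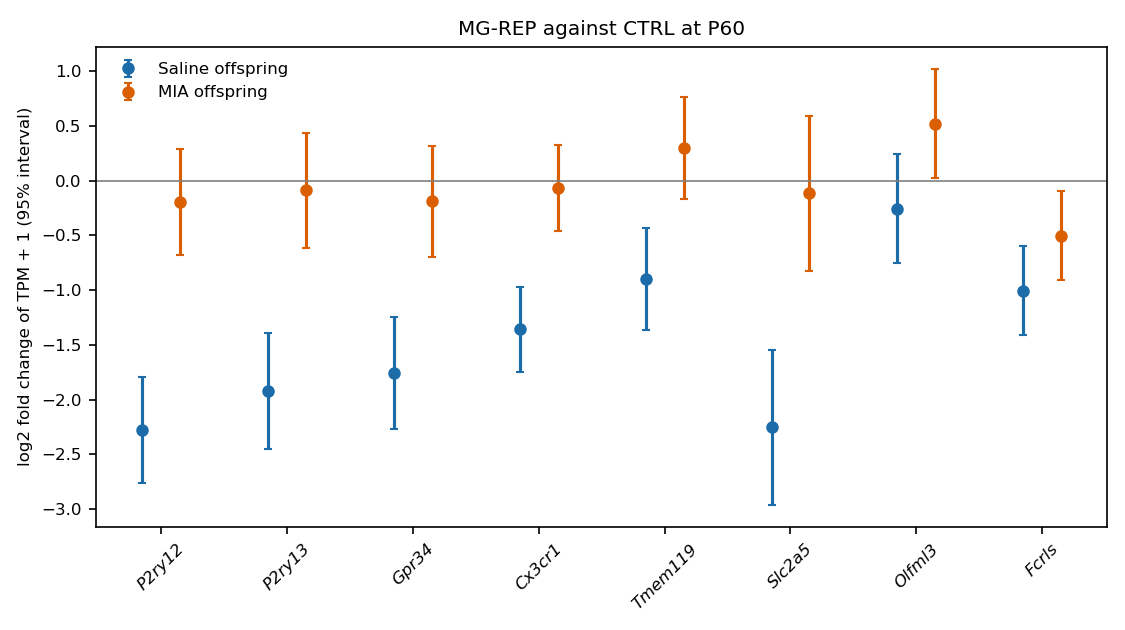
Log2 fold change of TPM + 1 (vertical axis) in MG-REP against CTRL at P60 for each gene (horizontal axis), with 95% intervals from limma, Saline offspring in blue and MIA offspring in orange. The Saline points run from -2.28 for P2ry12 to -0.26 for Olfml3, whose interval spans 0; the MIA points lie between -0.50 and 0.52.

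Within a library, the ratio of P2ry12 to Olfml3 does not depend on how the libraries are scaled; this pair was chosen after its values were seen. The log2 ratio was 0.64, 0.75 and 0.59 in Saline + CTRL, 0.60, 0.75 and 0.64 in MIA + CTRL, -0.08, -0.02 and -0.06 in MIA + MG-REP, and -1.84, -1.14 and -1.11 in Saline + MG-REP. Both MG-REP groups were below all 24 other libraries, in which the lowest value was 0.31, and Saline + MG-REP was below MIA + MG-REP. The ratio of P2ry12 to its neighbour P2ry13 moved less, from 1.47 ± 0.09 (SD, n = 3) in Saline + CTRL to 1.12 ± 0.31 in Saline + MG-REP, groups that did not overlap, and was 1.48 ± 0.04 in MIA + MG-REP.

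**Figure D4:**
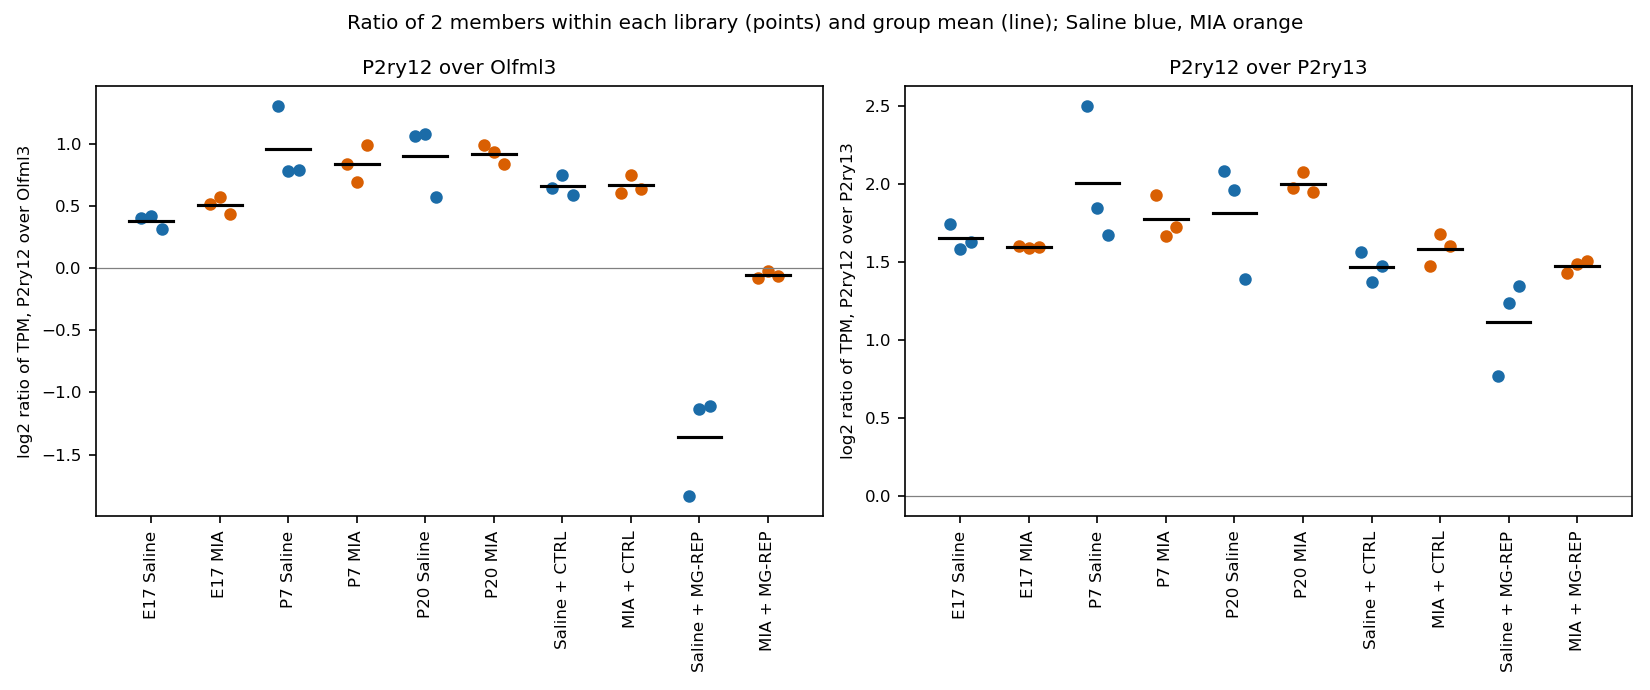
Log2 ratio of TPM (vertical axis) of P2ry12 to Olfml3 (left) and of P2ry12 to P2ry13 (right) in each library by group (horizontal axis), with lines at group means, Saline in blue and MIA in orange. The left panel falls below 0 in both MG-REP groups, to a mean of -1.36 in Saline + MG-REP.

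The Saline + MG-REP levels were also set against the younger Saline groups. Compared with P20, 7 of the 8 genes were lower, against 20.2% of all transcripts, and Olfml3 did not differ beyond its spread (0.15 log2, adjusted p = 0.675). The call of Tmem119 was lost under median-ratio scaling (-0.68 log2, adjusted p = 0.0862), and those of Tmem119 and Slc2a5 without Saline + MG-REP libraries 1 and 2 (-0.96 and -1.35 log2, adjusted p = 0.0603 and 0.0804). Compared with E17, a comparison added after the values were seen, 2 were higher, Tmem119 (1.72 log2, adjusted p = 1.92e-06) and Olfml3 (0.86 log2, adjusted p = 0.00666), against 13.6% of all transcripts, and 3 were lower, Fcrls (-1.51 log2, adjusted p = 1.89e-06), P2ry12 (-0.87 log2, adjusted p = 0.00487) and Cx3cr1 (-0.58 log2, adjusted p = 0.0169), against 24.6%. The calls of P2ry12 and Cx3cr1 were lost under median-ratio scaling (adjusted p = 0.0645 and 0.241), and that of Cx3cr1 also without E17 Saline library 2 or 3 (adjusted p = 0.0788 and 0.0552). Without Saline + MG-REP libraries 1 and 2, the changes of Olfml3, P2ry12 and Cx3cr1 were 0.80, -0.69 and -0.58 log2. Slc2a5 and Gpr34 lay below all 3 E17 libraries and P2ry13 overlapped with them, without passing the test (adjusted p = 0.150, 0.164 and 0.311). Slc2a5 and Gpr34 were called lower on leaving out 5 libraries that stood apart (adjusted p = 0.00633 and 0.0359). With each library centred on the 5 microglial genes, Slc2a5, Gpr34 and P2ry13 were called lower (adjusted p = 0.0171, 0.00426 and 0.0239).

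**Figure D5:**
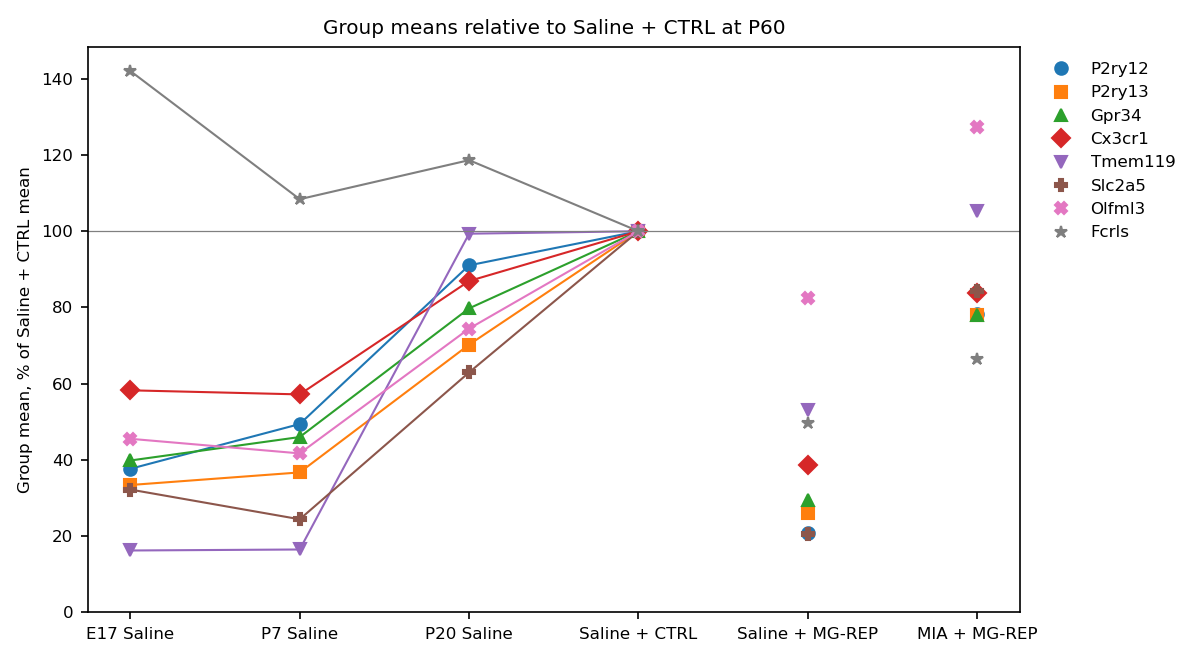
Group means as a percent of the Saline + CTRL mean (vertical axis) for the Saline groups by age and for both MG-REP groups (horizontal axis), with 1 marker per gene. In Saline + MG-REP the genes spread from 20.6% (Slc2a5) to 82.4% (Olfml3), while Tmem119 sits at 53.0%, above its 16.2% at E17.

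Compared directly at P60 after repopulation, MIA offspring had more of 6 of the 8 genes than Saline offspring, against 10.9% of all transcripts called higher. P2ry12 was 1.93 log2 higher (SE 0.24, adjusted p = 1.43e-06), Slc2a5 2.04, P2ry13 1.57, Gpr34 1.41, Cx3cr1 1.12 and Tmem119 0.99 log2 higher (adjusted p = 1.06e-04, 6.89e-05, 1.63e-04, 1.08e-04 and 0.00231). Olfml3 and Fcrls were higher in all 3 MIA libraries than in all 3 Saline libraries and did not pass the test (0.63 and 0.42 log2, adjusted p = 0.0666 and 0.136). Both were called under quantile normalization (0.76 and 0.62 log2, adjusted p = 0.0302 and 0.00584). They were also called on leaving out 5 libraries that stood apart (adjusted p = 0.00281 and 0.0309), and Olfml3 in a fit of only the groups compared (adjusted p = 0.0228). Those 5 libraries belong to other groups, so these 2 settings left the fold changes as they were and changed only the estimate of spread.

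The Saline + MG-REP libraries stood apart from the other P60 libraries in further gene groups. The cycling list summed to 1557, 629 and 550.0 TPM there, with all 13 genes higher than in Saline + CTRL, against 11.9% of all transcripts, and to 26.3 to 28.8 TPM in MIA + MG-REP. Border macrophage genes summed to 1324, 690.1 and 694 TPM, against 460 to 633 TPM in Saline + CTRL and 281 to 421 TPM in MIA + MG-REP, with Mrc1 and Pf4 present in every library of the study. Of the 8 border macrophage genes with a row, 1 was higher and 3 were lower than in Saline + CTRL. Library 1, which had the highest cycling and border macrophage sums, also had the lowest P2ry12, Gpr34, P2ry13, Slc2a5 and Cx3cr1 of its group, and the highest Tmem119, Fcrls and Olfml3. Without libraries 1 and 2, which leaves 1 library assumed to vary like those of the other groups, 6 of the 8 genes were still called lower than in Saline + CTRL, and the number for which the 2 arms differed went from 6 to 3, P2ry12, P2ry13 and Cx3cr1. Tmem119 was then the member that lost its call against Saline + CTRL (-0.96 log2), and Olfml3 had none in the main fit. On leaving out MIA + CTRL library 1 alone, the difference between the arms in Tmem119 was 0.99 log2 (adjusted p = 0.0532). The part of proliferation and of other macrophages in the members' levels was not tested.

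The general microglial genes moved less than most members. C1qa, C1qb and C1qc, the chains of complement C1q, had changes of 0.05, 0.17 and 0.04 log2 in Saline + MG-REP against CTRL (adjusted p = 0.902, 0.608 and 0.915), while Csf1r fell by 0.73 log2 (adjusted p = 0.00551). With each library centred on the 5 general microglial genes, 7 of the 8 members were again called lower in Saline + MG-REP. The share of all transcripts called lower under that centring is not given here. The 6 MG-REP libraries were female and 4 of the 6 CTRL libraries male, so that sex and repopulation overlap. In the female library of Saline + CTRL, P2ry12 had 3779.7 TPM and the X-linked Gpr34 1813 TPM. Their highest values in Saline + MG-REP were 949.8 and 627 TPM. In MIA + CTRL the female library was below its group mean in all 8 members, with a median deviation of -0.31 log2. With Xist as a covariate, Tmem119 lost its call in Saline + MG-REP against CTRL. The part of sex in the members' levels was otherwise not tested.

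Of the other homeostatic transcripts, 27 of 45 were lower and none higher in Saline + MG-REP against CTRL, and for 23 the 2 arms differed. Gpr165 (-5.67 log2, from 93.1 to 0.933 TPM), Upk1b (-5.39 log2, from 113 to 1.94 TPM) and Sall1 (-2.48 log2, from 659 to 132 TPM), the transcription factor that maintains microglial identity, fell most (adjusted p = 1.53e-10, 7.24e-10 and 5.96e-07), and the difference between the arms was likewise greatest for Upk1b (3.99 log2), Gpr165 (2.60 log2) and Sall1 (2.47 log2), with adjusted p-values of 6.65e-05, 0.00325 and 2.62e-04.

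Relatives and partners of the members were taken from lists. Of 27 family transcripts with a row, 6 were higher and 4 lower in Saline + MG-REP against CTRL, where 11.9% and 14.9% of all transcripts were called in these directions, so that the share of lower relatives was near the background. Among the glucose transporters, Slc2a6 rose by 2.92 log2 and Slc2a3 by 0.84 log2 (limma, adjusted p = 2.03e-08 and 0.0194) as Slc2a5 fell, and Siglec1, a sialic acid receptor of macrophages, rose by 3.37 log2 in Saline and 1.17 log2 in MIA offspring. Of the chemokine receptors Cxcr4 rose by 2.95 log2 and Ccr2, which is also a monocyte marker, by 1.57 log2. The monocyte and neutrophil list, which holds Ccr2, summed to 94.4, 5578 and 382 TPM in Saline + MG-REP libraries 1, 2 and 3. How far the rise of Ccr2 rests on library 2 is not given here. Of 13 transcripts of partners, 3 were higher and 3 lower. Among the enzymes that handle ADP, Entpd1 (CD39), which removes ATP and ADP, fell by 0.87 log2, and Nt5e (CD73), which makes adenosine from AMP, rose by 3.15 log2 from 2.63 TPM. Adora3, an adenosine receptor, fell by 1.48 log2. P2ry6, the UDP receptor, had a change of 0.31 log2 (adjusted p = 0.335), and Cx3cl1, the fractalkine that Cx3cr1 binds, -0.86 log2 (adjusted p = 0.120).

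Across the 10 group means, each member had close companions outside the set. P2ry12 was followed most closely by 0610040J01Rik (r = 0.996) and Ulk3 (r = 0.993), Cx3cr1 by Tanc2 (r = 0.993) and 0610040J01Rik (r = 0.985), and Gpr34 by Rtn4rl1 (r = 0.992) and Smap2 (r = 0.990). P2ry13 was followed by Rps6kc1 (r = 0.988) and Rtn4rl1 (r = 0.987), Slc2a5 by Zfp595 (r = 0.977) and Acp2 (r = 0.974), Tmem119 after Selplg by Crlf3 (r = 0.994), and Olfml3 by Nlrp1c-ps (r = 0.990) and Slamf8 (r = 0.988). Slamf8 and Nlrp1c-ps shared the feature that sets Olfml3 apart, with means of 23.3 and 30.8 TPM in Saline + MG-REP, 26.6 and 38.7 TPM in Saline + CTRL, and their highest means, 48.1 and 63.6 TPM, in MIA + MG-REP. Within the set, r over the 10 group means was 0.983 between Cx3cr1 and P2ry12 and 0.386 between Fcrls and P2ry12. These values are over groups that share their age and treatment and describe likeness of course only.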

How the data were processed

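Poly(A) RNA of CD11b bead-isolated cells was sequenced from non-stranded libraries. Per the methods and the submitters' processing notes, Rsubread placed the reads on the mm10 genome and featureCounts assigned them to transcripts of the UCSC annotation, and the authors deposited TPM values for 14225 transcripts (13483 symbols) that passed their filter on low counts; how TPM was computed is not given in the sources used here. The deposited TPM summed to between 995495 and 998012 per library and keep no read depth, so precision rests on the spread between the 3 libraries of a group. A deposited column of module names, the authors' own result, was not used, and 0 columns belonged to other samples.

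Groups came from the sample labels. Values were taken as log2(TPM + 1) and fitted with limma 3.58.1 (R 4.3.3) with 1 mean per group over 30 libraries and a mean-variance trend, and p-values were adjusted by Benjamini-Hochberg over all 14225 transcripts with a call at 0.05. Since the table holds TPM, no count model was run. The same script was tested on simulated data. All p-values and 95% intervals are two-sided. Python 3.11.15, pandas 2.3.3 and numpy 2.4.6 were used for levels, and matplotlib 3.10.9 for figures.

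The members and all gene lists were chosen with earlier results of these data known. Named beside the members were the 2 genes with the highest Pearson r of log2(TPM + 1) over the group means among 9175 transcripts with at least 10 TPM in a group, the 3 largest called changes among other homeostatic genes in each direction, some of the relatives and partners, and chromosome neighbours. The comparison of Saline + MG-REP with E17 and the alternatives leaving out 5 libraries together (E17 MIA 1, P7 Saline 1, P7 MIA 3, P20 Saline 3 and MIA + CTRL 1) or Saline + MG-REP 1 and 2 were added after the values were seen. Further alternatives were a pseudocount of 0.1, a mean TPM of at least 1 (12644 transcripts), median-ratio scaling (factors 0.825 to 1.24), quantile normalization, centring on the mean of 5 microglial genes, 1 of which is not reported here, a replicate block, only the groups compared, no trend, Xist as a covariate, unadjusted p, and each library left out. Replicate numbers are in the labels without a stated meaning. Of 7 pairs of groups, only Saline and MIA at P20 had a correlation of same-numbered deviations over 0.1 in every pair (0.16 to 0.31). Promoters came from RefSeq (GRCm38.p6).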

Additional observations from a re-analysis of the deposited data

Results flagged for a closer look

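For 6 genes the effect of repopulation (MG-REP against CTRL) differed between MIA and Saline offspring by the interaction term of limma, and each difference, in log2 of TPM + 1, was positive. It was 2.14 for Slc2a5 (SE 0.48, adjusted p = 0.00471), 2.08 for P2ry12 (SE 0.33, adjusted p = 1.54e-04) and 1.83 for P2ry13 (SE 0.36, adjusted p = 0.00132). It was 1.57 for Gpr34 (SE 0.35, adjusted p = 0.00408), 1.29 for Cx3cr1 (SE 0.27, adjusted p = 0.00214) and 1.20 for Tmem119 (SE 0.32, adjusted p = 0.0154), whose call was lost under median-ratio scaling (1.13, adjusted p = 0.0931). In all 6, each of the 3 Saline + MG-REP libraries lay below each of the 3 MIA + MG-REP libraries. The 6 were picked by their calls in these same libraries, so this is no separate evidence. The cycling genes differed between the same 2 groups of libraries in the opposite direction, and their part in these values was not tested.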

How the results depend on the processing

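Of 2392 values of single members under other settings, 2238 kept their direction and their side of the threshold, 42 lost a call and 18 gained one. A further 92 values without a call in either setting changed sign, none of a size over 0.312 log2. The rest were those of Fcrls and Cx3cr1 from P7 to P20 in MIA offspring with the centring on microglial genes. Both changed sign, where Fcrls became called as lower (-0.42 log2, adjusted p = 0.0100) and Cx3cr1 lost its call. Of 317 counts of members called, 15 moved by over 1.5 times. Shares of all transcripts called are given for the main fit only. The counts under other settings therefore cannot be set against a background. With each library centred on 5 microglial genes, 4 in place of 7 members were called from P7 to P20 in Saline offspring, 3 in place of 7 in MIA offspring, where Fcrls (-0.42 log2) and Cx3cr1 (-0.026 log2) turned negative, 1 in place of 0 in MIA + MG-REP against CTRL, and 8 in place of 5 in Saline + MG-REP against E17, which had 3 under median-ratio scaling. At unadjusted p the counts were 1 in both arms from P20 to P60, 3 in MIA offspring from E17 to P7 (1 with quantile normalization) and 2 in MIA + MG-REP against CTRL. Leaving out 5 libraries together gave 1 there. Without Saline + MG-REP libraries 1 and 2, 2 members were called against E17 and 3 in the difference between the arms. Leaving out 1 library at a time gave 3 to 7 members from P7 to P20 in Saline offspring and 0 to 1 from E17 to P7 in MIA offspring. The cause of these changes was not tested.

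With the replicate block, 7 members were called in Saline + MG-REP against CTRL, 6 in the difference between the arms and 7 from P7 to P20 in both arms, as without it; no count of members moved.

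Centring on the 5 microglial genes moved the median of all transcripts by -0.45 log2 from P7 to P20 in Saline and -0.73 in MIA offspring, by -0.52 and -0.74 from E17 to P60, by 0.21 in Saline + MG-REP against CTRL and by -0.43 in the difference between the arms; relative to that median the members' median was 0.91, 1.07, 1.37, 1.55, -1.41 and 1.38 log2. The share of called transcripts that were higher went from 44.4% to 10.3%, from 36.7% to 3.43%, from 46.6% to 14.4%, from 40.1% to 8.01%, from 44.3% to 76.0% and from 42.0% to 8.93% in these 6 comparisons. It was 57.5% in Saline + MG-REP against CTRL and 49.2% in MIA offspring from P7 to P20 under median-ratio scaling. In Saline + MG-REP against P20 it went from 35.0% to 56.2%, 50.3% and 57.1% under median-ratio, quantile and microglial scaling, against E17 from 35.5% to 53.2% and 18.8% under the first and the last, and in MIA against Saline after repopulation from 49.7% to 11.6% under the last.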
